A study of Mus musculus with 6 samples.

Results

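The genes described here encode the proteins of the cytosolic ribosome, together with their named paralogues, in sorted mouse bone marrow cells. Members were chosen by symbol alone: a table row belonged when its symbol began with Rpl or Rps, optionally with the p of the acidic stalk proteins, followed by digits and at most a short suffix (a, a1, l, l1 or x). This rule took 86 of the 50763 gene symbols in the deposited table, and no measured value entered it. The family was, however, chosen with earlier results of these data known. By their names, 43 of the 86 were large subunit genes, 30 were small subunit genes, 3 encoded the acidic stalk and 10 were paralogues or like-named copies. RefSeq lists 83 of them as protein coding, Rpl6l and Rps12l1 as pseudogenes and Rps4l as a transcribed pseudogene.

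The libraries were bulk RNA from CD34- KSL cells, a sorted fraction of marrow that lacks lineage markers and CD34, carries Kit and Sca-1, and is rich in long-term blood stem cells. All mice had both Tal1-tTA, in which the blood stem cell gene Tal1 drives a transactivator that doxycycline switches off, and its target TRE-EGFR-tr. EGFR-DN mice (n = 3 libraries) had no doxycycline and by design made a receptor without its cytoplasmic kinase domain beside the wild-type one. Any effect thus depends on the cells in which Tal1 is active. EGFR-WT mice (n = 3 libraries) drank 0.2 g/L doxycycline and by design made wild-type receptor alone, so doxycycline and the truncated receptor cannot be told apart. The labels give no age and do not say whether the libraries came from separate animals or from pools, so the spread behind each p-value may be technical.

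Each ribosome carries a single copy of most of its proteins, and cells make the proteins of both subunits in matched amounts. Ribosomal protein mRNAs typically begin with a C followed by a run of pyrimidines, the 5′ terminal oligopyrimidine (TOP) motif, through which mTOR signalling sets their translation. Blood stem cells are known for low protein synthesis, and in people loss of a single copy of several of these genes causes Diamond-Blackfan anaemia, a failure of red cell production.

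Total counts ranged from 24073133 to 34186812 in EGFR-DN libraries and from 24428135 to 36032428 in EGFR-WT libraries, and a floor of 3 counts was 0.0833 to 0.125 per 10⁶ counts before scaling. CPM here are counts per 10⁶ counts, with library totals adjusted by the TMM method (trimmed mean of M-values). Egfr, the targeted gene, had 117, 135 and 50.2 CPM in EGFR-DN libraries and 0.190, 0.160 and 0.236 CPM in EGFR-WT libraries and so separated the libraries as labelled. The EGFR-WT values were 6 counts in each library, close to the floor of 3, so Egfr RNA was hardly seen there. EGFR-DN replicate 3 stood apart from the other libraries: 8 rRNA-like genes took 25.4% of its counts, where EGFR-DN replicates 1 and 2 had 5.69% and 4.71% and EGFR-WT libraries had 5.06% to 6.15%. Results that rest on it are given with and without it. All 8 stem cell markers examined were detected, with summed levels of 522, 682 and 1657 CPM in EGFR-DN libraries and 855 to 1166 CPM in EGFR-WT libraries. The 8 neutrophil markers summed to 894, 898 and 1433 CPM in EGFR-DN libraries and 402 to 583 CPM in EGFR-WT libraries. B lineage markers (7 found) summed to 49.6, 67.4 and 52.5 CPM in EGFR-DN libraries and 36.2 to 46.0 CPM in EGFR-WT libraries, and 6 T and NK cell markers to 258, 226 and 164 CPM in EGFR-DN libraries and to at most 157 CPM in EGFR-WT libraries. The 8 erythroid markers summed to 373, 314 and 557 CPM in EGFR-DN libraries and 221 to 356 CPM in EGFR-WT libraries. The 5 megakaryocyte markers summed to 775, 687 and 796 CPM in EGFR-DN libraries and 522 to 952 CPM in EGFR-WT libraries. For the erythroid and megakaryocyte sums the groups overlapped. With all 6 libraries, 6 of the 8 stem cell markers had a log2 fold change below 0 (median -0.26). An unadjusted edgeR p under 0.05 was seen for 1 of the 8, against 6.69% of all genes. Without EGFR-DN replicate 3 all 8 had a log2 fold change below 0 (median -0.69). There 7 of the 8 had an unadjusted edgeR p under 0.05, against 13.6% of all genes, and 0 had an adjusted one. The part of these differences in the values below was not tested.

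Sequence around the annotated start was available for 63 of the 86 members in RefSeq (build GRCm38.p6). A pyrimidine start was searched for as a C at the annotated start followed on the same strand by at least 4 bases that are each C or T. It was found in 14 of the 63 members (22.2%) and in 813 of 27025 genes with such a sequence (3.01%). The 14 were Rpl14, Rpl15, Rpl28, Rpl32l, Rpl35, Rpl35a, Rpl38, Rplp2, Rps10, Rps15a, Rps18, Rps21, Rps27 and Rps6. An annotated start may lie some bases away from the start used in these cells, so a member without a match may still carry the motif. Of the sequences below, Rpl15, Rpl35a, Rps10 and Rps27 are linked to Diamond-Blackfan anaemia, Rpl28 had almost no counts in its own row, and Rpl32l is a like-named copy. Each shows 60 bases before the start and 20 from it, 5′ to 3′ on the gene's strand, with the pyrimidine run at the start in capitals.
Rpl15, chr14:18270967-18271046, minus strand: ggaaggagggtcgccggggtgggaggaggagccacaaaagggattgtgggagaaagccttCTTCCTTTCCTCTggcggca
Rpl35a, chr16:33056422-33056501, plus strand: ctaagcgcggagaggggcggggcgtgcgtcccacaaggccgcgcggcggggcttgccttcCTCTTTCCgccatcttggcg
Rps10, chr17:27635225-27635304, minus strand: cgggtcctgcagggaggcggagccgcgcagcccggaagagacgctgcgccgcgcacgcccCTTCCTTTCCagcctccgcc
Rps27, chr3:90213629-90213708, minus strand: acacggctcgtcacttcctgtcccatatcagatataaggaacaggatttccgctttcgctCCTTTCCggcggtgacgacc
Rpl28, chr7:4792905-4792984, plus strand: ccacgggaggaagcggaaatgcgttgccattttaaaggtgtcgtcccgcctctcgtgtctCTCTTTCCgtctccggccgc
Rpl32l, chr10:20208379-20208458, plus strand: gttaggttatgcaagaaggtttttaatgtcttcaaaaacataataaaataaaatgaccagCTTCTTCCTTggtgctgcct
The run was 13 bases long in Rpl15, the longest of the 6, and 7 bases long in Rps27, the shortest of the 6.

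Most members were abundant in both groups, but their own rows differed widely in level. A mean of at least 4 CPM was reached by 81 of the 86 members, called expressed below. Levels were compared between genes per kilobase of annotated transcript, using the median length over the gene's transcripts in the annotation. In EGFR-WT libraries the median expressed member had 183 CPM per kilobase, against 7.57 for the 16713 tested genes with a length, and 11 members were among the 100 highest genes. The small subunit genes had a median of 402 CPM per kilobase and the large subunit genes 101 (range 8.48 to 1509).

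Among the 5 highest members per kilobase were Rps3, Rps3a1, Rpl32 and Rps14. Rps3, which also has a role in DNA repair, had 1899 CPM per kilobase in EGFR-WT libraries. Rps3a1 had 1716, Rpl32 had 1509 and Rps14, whose loss in people is tied to the anaemia of the 5q- syndrome, had 1467. The 5 lowest expressed members were Rpl12 (8.48 CPM per kilobase), Rps4l (9.49), Rpl23a (10.1), Rpl9 (11.8) and Rps12 (13.3). These levels differed by over 100-fold, although the proteins of nearly all of these genes enter the ribosome in equal number. For Rps15a (5130 bases) and Rps20 (3706 bases) the annotated length was far above that of the other members, which lowers their level on this scale.

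**Figure D1:**
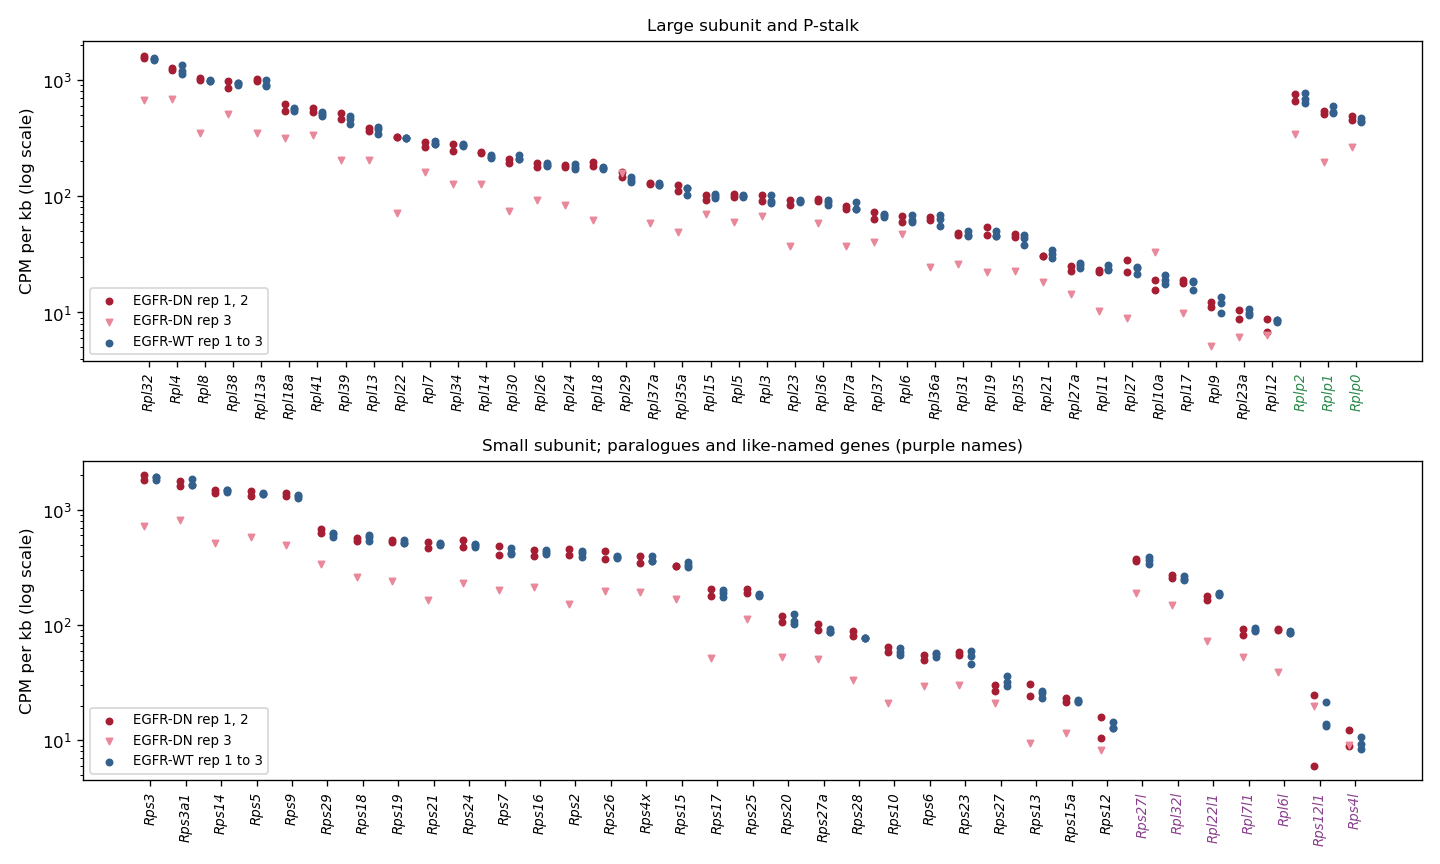
Level of 79 of the 81 expressed members per kilobase of annotated transcript (CPM per kilobase, log axis), with large subunit and stalk genes above and small subunit genes and like-named copies below. Each point is a library, with EGFR-DN left of EGFR-WT for each gene. EGFR-DN replicate 3 (triangles) lies below the other 5 libraries for 75 of the 79 members, and EGFR-DN replicates 1 and 2 lie beside the EGFR-WT libraries.

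Counts of many members also appeared under the names of near-identical copies. The genome holds many processed pseudogenes of these genes, and 321 rows of the table are named as ribosomal protein pseudogenes. These rows took 2.71%, 2.48% and 0.937% of counts in EGFR-DN libraries and 2.74%, 2.51% and 2.47% in EGFR-WT libraries, about as much as the members themselves. Of the 321 rows, 308 carry the names of 63 members. In EGFR-WT libraries the pseudogene rows summed to more than the member's own row for 34 members, and to over 10 times as much for 16 (Rpl3, Rpl9, Rpl10, Rpl10a, Rpl17, Rpl19, Rpl23a, Rpl27, Rpl28, Rpl31, Rpl36a, Rps6, Rps12, Rps13, Rps23 and Rps27). The values of such members are uncertain. Only 5.43% of the members' values were whole numbers, against 79.4% in the whole table (60.2% of its values above 0), with a tolerance of 0. There were 4 members that had whole values in every library (Rpl8, Rpl10l, Rpl39l and Rpl3l).

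Rpl28, a large subunit gene, showed the most extreme division. Its own row held 0.209, 0.234 and 0 CPM in EGFR-DN libraries and 0.701, 0 and 0.148 CPM in EGFR-WT libraries. The rows named as its pseudogenes held 417, 369 and 246 CPM in EGFR-DN libraries and 389, 380 and 370 CPM in EGFR-WT libraries. Rpl10, an X-linked large subunit gene, followed the same pattern, with 1.59, 1.16 and 1.15 CPM in its own row in EGFR-DN libraries and 1.80, 1.95 and 1.79 CPM in EGFR-WT libraries. Its pseudogene rows held 835, 767 and 462 CPM in EGFR-DN libraries and 759, 725 and 738 CPM in EGFR-WT libraries. For Rpl28 and Rpl10 the row that bears the gene's name therefore says little about its transcript. Other members had few counts in rows named as their pseudogenes: for Rpl29 these rows never exceeded 0.807 CPM, and for Rpl12 they never exceeded 0.313 CPM. Copies under other symbols, such as Rpl6l and Rps12l1, were not part of these sums. With the pseudogene rows added, the median expressed member had 554 CPM per kilobase in EGFR-WT libraries, the small subunit genes 866 and the large subunit genes 511. The range was then 389-fold, with Rpl12 still lowest (8.63) and Rps18 highest (3356), so the added rows did not bring all members to a common level. Of the 5 lowest by own row, Rpl9, Rps12 and Rpl23a rose from 11.4, 6.53 and 5.64 CPM to 902, 440 and 242 CPM in EGFR-WT libraries. Rpl12 and Rps4l stayed low, at 10.7 and 8.25 CPM.

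**Figure D2:**
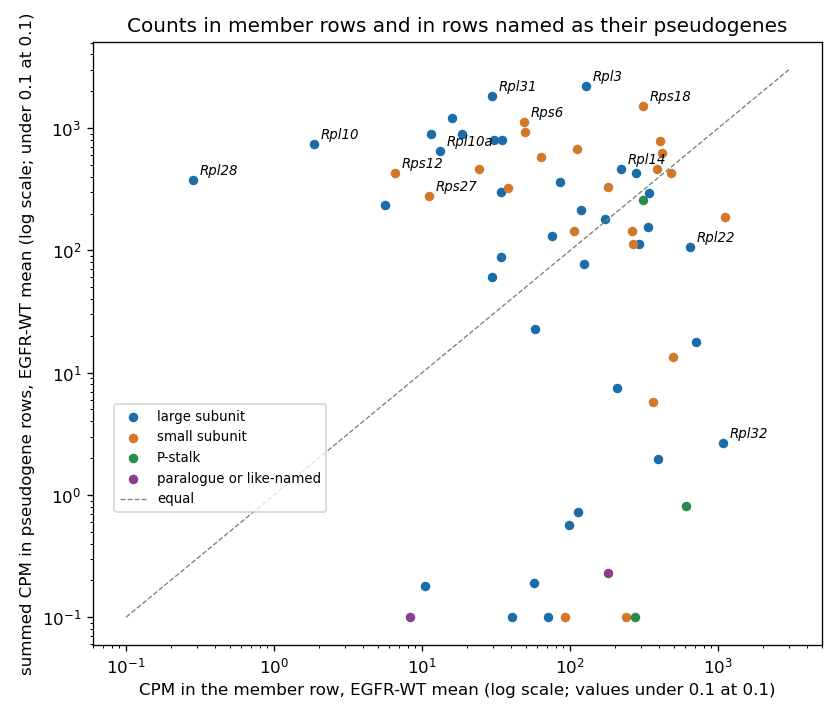
Mean CPM in EGFR-WT libraries in the member's own row (horizontal, log axis) and summed over the rows named as its pseudogenes (vertical, log axis), for the 63 members that have such rows. Values under 0.1 CPM are drawn at 0.1 and the dashed line marks equal values. The 34 members above the line, among them Rpl28, Rpl10, Rpl3 and Rpl31, had more counts in pseudogene rows than in their own.

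The family made up a similar part of the transcriptome in 5 of the 6 libraries and a much smaller part in the sixth. Members summed to 2.62%, 2.41% and 0.881% of counts in EGFR-DN libraries and to 2.60%, 2.46% and 2.46% in EGFR-WT libraries. EGFR-DN replicates 1 and 2 lay at or beside the EGFR-WT range, and EGFR-DN replicate 3 lay far below it. In bulk RNA, fewer cells of a type and less RNA per cell cannot be told apart. On the TMM scale the median expressed member stood at 0.079, -0.049 and -1.02 (log2, relative to the EGFR-WT mean) in EGFR-DN libraries and at 0.019, -0.013 and -0.008 in EGFR-WT libraries. The median of all genes in EGFR-DN replicate 3 was 0.008, and 11.4% of all genes lay at or below the family's median there.

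The low level in EGFR-DN replicate 3 was broad but uneven. That library was the lowest of the 6 for 77 of the 81 expressed members, the exceptions being Rpl10a, Rpl29, Rps12l1 and Rps4l. The level there relative to the EGFR-WT mean ranged from 0.230 (Rpl22) to 1.73 (Rpl10a), with a median of 0.493. Small subunit genes had a median of -1.09 (log2) and large subunit genes of -0.88, and the ratio of large to small subunit counts was 0.820, 0.843 and 0.976 in EGFR-DN libraries, against 0.814, 0.831 and 0.808 in EGFR-WT libraries. In EGFR-DN replicate 3 the members also scattered more around their own median, with an SD of 0.47 (log2), against 0.12 and 0.17 in EGFR-DN replicates 1 and 2. The 0.17 of EGFR-DN replicate 2 includes Rps12l1, which lay at -1.34. EGFR-WT libraries had an SD of 0.085, 0.068 and 0.083. Each of them is part of the EGFR-WT mean used as reference, which lowers these values, so they cannot be set against those of EGFR-DN libraries.

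Other measures moved in the same library. Across all genes, the log2 difference of EGFR-DN replicate 3 from the EGFR-WT mean was higher for longer transcripts (Spearman rho 0.35 over 16430 genes, a description across genes that share a library). Genes of up to 1500 bases had a median of -0.46 (5373 genes) and genes over 4000 bases a median of 0.57 (3234 genes), and 75 of the expressed members are of up to 1500 bases. The family's median of -1.02 was thus lower than that of short genes as a whole. Among the 81 members the departure from the family median in that library had a Spearman rho of 0.10 with length, -0.043 with GC content, 0.19 with the share of counts in pseudogene rows and -0.41 with the level per kilobase. Members with a pyrimidine start had a median departure there of 0.11 (13 members, -0.58 to 0.49) and members without one of -0.058 (45 members, -1.10 to 1.81). The part of transcript length and rRNA-like counts in the low level was not tested.

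**Figure D3:**
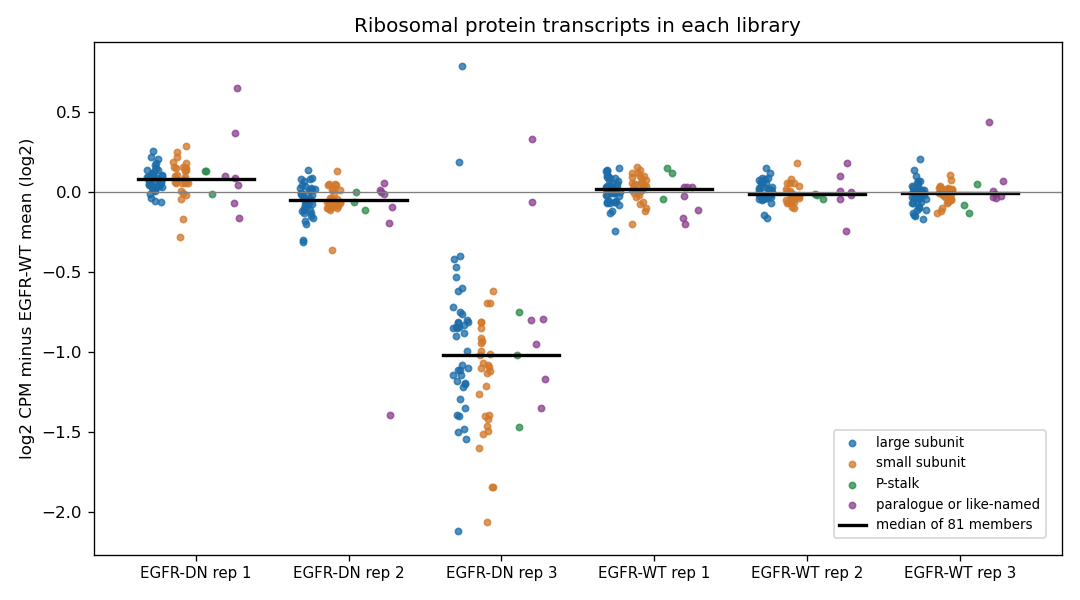
Log2 CPM of the 81 expressed members relative to the mean of the EGFR-WT libraries (vertical axis, log2 units), by library, coloured by subunit. Points are members and bars are their medians. The medians lie between -0.049 and 0.079 in 5 libraries and at -1.02 in EGFR-DN replicate 3, where the points also spread most.

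The comparison of EGFR-DN with EGFR-WT asks which transcripts differ when the truncated receptor is made. No ribosomal protein gene passed the test. Of the 86 members, 82 had enough counts to be tested, and 0 of 82 had an adjusted p under 0.05 in edgeR's quasi-likelihood test on all 6 libraries, where 0.00518% of 19313 genes did (Egfr alone). DESeq2 and limma-voom also called 0 members. No member had an unadjusted edgeR p under 0.05, against 6.69% of all genes, and the smallest adjusted p of a member was 0.690. The median log2 fold change of the expressed members was -0.25 (all genes tested 0.010), with 77 members below 0 and 4 above. The values ran from -0.44 to 0.24, and the median standard error (SE) of a member was 0.29.

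Without EGFR-DN replicate 3 the family stood level with the other genes. The median log2 fold change of the expressed members was 0.017 (all genes tested -0.005), with 32 below 0 and 49 above. All 81 lay between -0.20 and 0.15, a band of 0.2 around 0 that held 56.8% of all genes, and the median SE was 0.079. Of the 83 members tested in those 5 libraries, 0 had an adjusted p under 0.05 in edgeR, against 0.286% of 19919 genes. DESeq2 and limma-voom called 0 members there as well. An unadjusted edgeR p under 0.05 was seen for 1 member and for 13.6% of all genes. That member, Rpl39l, passed the count filter only through the 2 EGFR-DN libraries in which it was high, so its p carries no weight. Members varied little between these 5 libraries, with a median coefficient of variation of 5.80%, close to the 6.29% of 5564 genes of similar level (12.8% for all genes tested).

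In their own rows, few members separated the groups library by library. With all 6 libraries, 5 of the 82 tested members had groups that did not overlap, where 17.9% of all genes did. Among the 5 was Rpl10, lower in every EGFR-DN library, with a log2 fold change of -0.49 (SE 0.30) on the few counts left in its own row. Among the 81 expressed members there were 4 (4.94%). EGFR-DN was the lower group for 3 of these, Rpl11, Rpl22l1 and Rpl30, where 8.72% of all genes had EGFR-DN lower, and the higher group for Rpl29. Without EGFR-DN replicate 3 the groups did not overlap for 10 of the 81 expressed members (12.3%), against 32.0% of all genes. In each of these counts the share of members was below that of all genes.

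**Figure D4:**
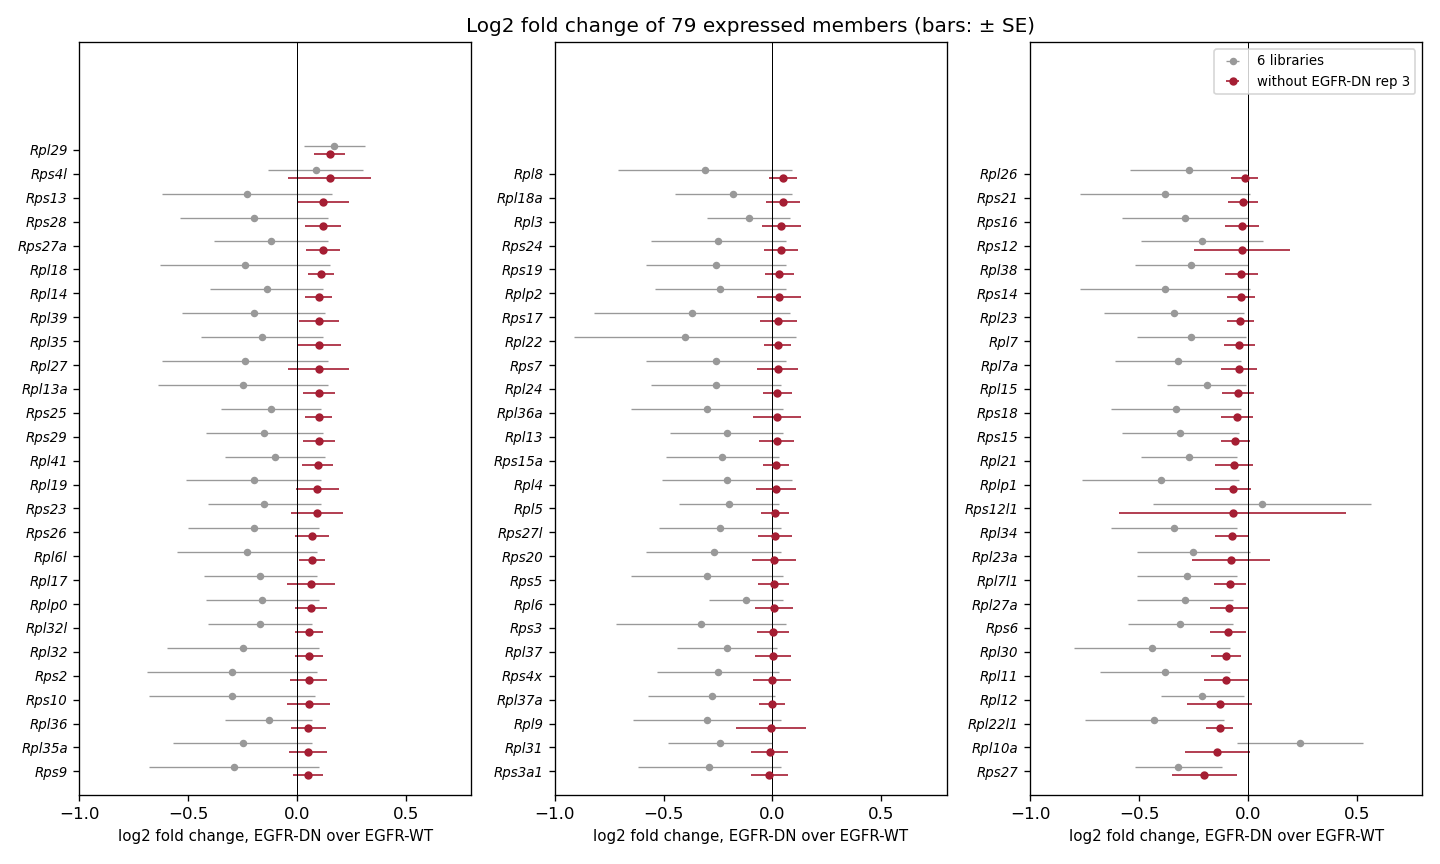
Log2 fold change of EGFR-DN over EGFR-WT (horizontal axis) for 79 of the 81 expressed members, with bars of ± 1 SE from edgeR, ordered by the value without EGFR-DN replicate 3. Grey points use all 6 libraries (median of all 81 members -0.25). Red points leave out EGFR-DN replicate 3 (median of all 81 members 0.017), with every member between -0.20 and 0.15.

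A few large subunit genes departed from the family upward. Departure is the member's log2 fold change minus the family median. Rpl29, a basic protein also known to bind heparin, had 114.8, 104 and 112.2 CPM in EGFR-DN libraries and 93.7, 103 and 98.1 CPM in EGFR-WT libraries. All 3 EGFR-DN values were above the 3 EGFR-WT values, and EGFR-DN replicate 3 was as high as the others. Its log2 fold change was 0.17 (SE 0.14, edgeR adjusted p = 0.707) with all libraries and 0.15 (SE 0.071, edgeR adjusted p = 0.411) without EGFR-DN replicate 3, so it did not pass the test in either. Its departure was 0.42 with that library and 0.13 without it.

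Rpl10a, the protein of the large subunit's L1 stalk, had 13.1, 10.6 and 22.6 CPM in EGFR-DN libraries and 13.0, 11.9 and 14.4 CPM in EGFR-WT libraries. Its departure of 0.49, the highest of the expressed members, turned to -0.16 without EGFR-DN replicate 3, the library in which it was highest. Its pseudogene rows held 696, 639 and 504 CPM in EGFR-DN libraries and 656, 630 and 664 CPM in EGFR-WT libraries, so the own row held a small part of the counts under its name. Rpl3, a core protein near the peptidyl transferase centre, had 139, 122 and 91.1 CPM in EGFR-DN libraries and 138, 124 and 118 CPM in EGFR-WT libraries. Its pseudogene rows held far more, with 2408, 2157 and 946 CPM in EGFR-DN libraries and 2384, 2187 and 2049 CPM in EGFR-WT libraries. Rpl41, a very short basic peptide with no pseudogene rows, had 299, 277 and 175 CPM in EGFR-DN libraries and 257, 280 and 270 CPM in EGFR-WT libraries. In their own rows Rpl3 and Rpl41 were less low in EGFR-DN replicate 3 than the family as a whole. Their departures were 0.14 and 0.15 with that library, against 0.024 and 0.076 without it. For Rpl3 the departure describes only the small part of the counts in its own row, and its pseudogene rows were also low in EGFR-DN replicate 3.

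Rpl22 departed downward through EGFR-DN replicate 3. Its protein belongs to the large subunit and in mice is dispensable for translation but needed in T cell development. Rpl22 had 657, 655 and 148 CPM in EGFR-DN libraries and 644, 644 and 643 CPM in EGFR-WT libraries. The 5 other libraries lay within a coefficient of variation of 1.04%, and EGFR-DN replicate 3 held 0.230 of the EGFR-WT mean. The log2 fold change was -0.40 (SE 0.51) with it and 0.023 (SE 0.061) without it. The groups overlapped, and without EGFR-DN replicate 3 the departure was 0.006.

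In their own rows, Rpl30 and Rpl22l1 were lower in every EGFR-DN library. Rpl30, a large subunit gene, had 120, 110 and 42.2 CPM in EGFR-DN libraries and 128, 120 and 120 CPM in EGFR-WT libraries, where the highest EGFR-DN value fell just short of the lowest EGFR-WT value. Rows named as its pseudogenes held 85.5, 72.8 and 60.8 CPM in EGFR-DN libraries and 79.3, 79.7 and 74.7 CPM in EGFR-WT libraries. With these rows added to its own the groups overlapped. The log2 fold change of the own row of Rpl30 was -0.44 (SE 0.36, edgeR adjusted p = 0.709) with all libraries and -0.10 (SE 0.068, edgeR adjusted p = 0.571) without EGFR-DN replicate 3. Neither passed the test. Rpl22l1 is described with its pair below.

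Without EGFR-DN replicate 3, the largest departures among the 81 expressed members were small. The expressed members farthest above the family median were Rpl29 and Rps4l (0.13 each) and Rpl18, Rps13, Rps27a and Rps28 (0.10 each). Rpl18 had 133, 124 and 42.6 CPM in EGFR-DN libraries and 120, 120 and 116.1 CPM in EGFR-WT libraries. Rps27a, made as a fusion with ubiquitin, had 73.7, 64.2 and 35.9 CPM in EGFR-DN libraries and 62.4, 65.6 and 61.6 CPM in EGFR-WT libraries. For Rpl18 both other EGFR-DN libraries were above the EGFR-WT range, and for Rps27a only EGFR-DN replicate 1 was. Rps13 had 29.4, 23.3 and 9.04 CPM in EGFR-DN libraries and 22.2, 25.5 and 24.8 CPM in EGFR-WT libraries, and its groups overlapped. Rps28 had 34.2, 31.0 and 12.9 CPM in EGFR-DN libraries and 29.9, 29.7 and 30.2 CPM in EGFR-WT libraries, with EGFR-DN replicates 1 and 2 above the EGFR-WT range. Farthest below among the expressed members were Rps27 (-0.21), Rpl10a (-0.16), Rpl22l1 (-0.15), Rpl12 (-0.14), Rpl30 (-0.12) and Rpl11 (-0.11). Rpl12, which sits at the base of the stalk, had 10.9, 8.48 and 7.98 CPM in EGFR-DN libraries and 10.6, 10.7 and 10.3 CPM in EGFR-WT libraries, and its groups overlapped.

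The acidic stalk recruits translation factors to the large subunit. Rplp0, its anchor, had 669, 610 and 362 CPM in EGFR-DN libraries and 592, 605 and 632 CPM in EGFR-WT libraries. Rplp1 had 270, 251 and 98.0 CPM in EGFR-DN libraries and 296, 265 and 257 CPM in EGFR-WT libraries. Rplp2, which pairs with Rplp1, had 340, 297 and 152 CPM in EGFR-DN libraries and 344, 306 and 283 CPM in EGFR-WT libraries. The groups overlapped for all 3 genes. Log2 fold changes were -0.16 (SE 0.26) for Rplp0, -0.40 (SE 0.36) for Rplp1 and -0.24 (SE 0.30) for Rplp2 with all libraries, and 0.064 (SE 0.072), -0.069 (SE 0.082) and 0.029 (SE 0.10) without EGFR-DN replicate 3. Per kilobase in EGFR-WT libraries Rplp2 had 693 CPM, Rplp1 546 and Rplp0 449.

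Of 19 members linked to Diamond-Blackfan anaemia in people, 0 passed the test in either direction, with or without EGFR-DN replicate 3, and 0 had an unadjusted edgeR p under 0.05 in either comparison. Their median log2 fold change was -0.24 with all libraries, close to the -0.25 of the whole family, and 0.031 without that library. The 4 with the smallest p were Rpl11, Rpl15, Rpl26 and Rps27. Rpl11, which binds and inhibits Mdm2 when ribosome assembly fails, had 19.3, 18.4 and 8.61 CPM in EGFR-DN libraries and 19.3, 21.2 and 19.8 CPM in EGFR-WT libraries. At more digits its groups did not overlap, but EGFR-DN replicate 1 and EGFR-WT replicate 1 were equal as printed. Rps27 had 9.22, 10.4 and 7.31 CPM in EGFR-DN libraries and 12.3, 11.0 and 10.3 CPM in EGFR-WT libraries, and its groups overlapped by a small amount. Its log2 fold change was -0.32 (SE 0.20, edgeR adjusted p = 0.690) with all libraries and -0.20 (SE 0.15, edgeR adjusted p = 0.622) without EGFR-DN replicate 3. Rpl15 had 87.0, 78.0 and 58.6 CPM in EGFR-DN libraries and 81.1, 88.6 and 84.8 CPM in EGFR-WT libraries. Rpl26, which in human cells binds p53 mRNA, had 116.4, 107 and 56.7 CPM in EGFR-DN libraries and 112.3, 110 and 115.5 CPM in EGFR-WT libraries. For Rpl15 and Rpl26 the groups overlapped. Rps19, the gene most often mutated in the disease, was chosen here after its values were seen and had 423, 410 and 187 CPM in EGFR-DN libraries and 424, 398 and 397 CPM in EGFR-WT libraries.

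Paralogue use was measured as the paralogue's share of the counts of its pair, which does not depend on how libraries are scaled. The 7 pairs compared were tested by exact two-sided permutation over libraries, whose smallest possible p is 0.1 with 3 against 3 libraries, and adjusted over the 7. No pair could therefore pass the threshold of 0.05. The paralogue most used was Rps27l, a p53 target, with 95.6%, 94.9% and 93.3% of the counts of its pair in EGFR-DN libraries and 93.6%, 95.0% and 95.0% in EGFR-WT libraries. Its own level was 202, 195 and 101 CPM in EGFR-DN libraries and 182, 211 and 197 CPM in EGFR-WT libraries. The groups overlapped and the mean share differed by 0.0504 percentage points (exact p = 1.00). This share depends on the division of Rps27 counts: with the pseudogene rows counted as Rps27 it was 40.5%, 41.9% and 47.9% in EGFR-DN libraries and 35.8%, 42.4% and 43.6% in EGFR-WT libraries.

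Rpl7l1, whose yeast relative acts in ribosome assembly, held 32.0%, 36.7% and 35.6% of the pair with Rpl7 in EGFR-DN libraries and 34.7%, 35.2% and 35.1% in EGFR-WT libraries. Its own level was 160, 179 and 103 CPM in EGFR-DN libraries and 183, 179 and 175 CPM in EGFR-WT libraries. Levels of Rpl7l1 followed the family, with a departure of -0.031 with all libraries and -0.10 without EGFR-DN replicate 3. The shares of the pair overlapped (exact p = 1.00).

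Rpl22l1, which can take the place of Rpl22 and rises in mice that lack it, had 96.4, 88.3 and 39.6 CPM in EGFR-DN libraries and 103, 101 and 98.7 CPM in EGFR-WT libraries. All EGFR-DN values were below all EGFR-WT values. The log2 fold change was -0.43 (SE 0.32, edgeR adjusted p = 0.697) with all libraries and -0.13 (SE 0.063, edgeR adjusted p = 0.406) without EGFR-DN replicate 3, so it did not pass the test in either. Its share of the pair was 12.8%, 11.9% and 21.1% in EGFR-DN libraries and 13.8%, 13.6% and 13.3% in EGFR-WT libraries. EGFR-DN replicate 3 lay above the EGFR-WT range and the other EGFR-DN libraries below it. The difference of the means was 1.69 percentage points with EGFR-DN replicate 3 (exact p = 1.00) and -1.23 without it (exact p = 0.200, adjusted 0.467). Per kilobase the share was 35.8%, 33.9% and 50.4% in EGFR-DN libraries and 37.8%, 37.5% and 36.8% in EGFR-WT libraries.

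Paralogues known mainly from testis or muscle were near the limit of detection. Rpl39l, known from male germ cells, had 12, 18 and 2 counts in EGFR-DN libraries and 3, 0 and 0 counts in EGFR-WT libraries. As a share of its pair with Rpl39 this was 0.111%, 0.180% and 0.0802% in EGFR-DN libraries and 0.0319%, 0% and 0% in EGFR-WT libraries, without overlap (exact p = 0.1, adjusted 0.350). The share in EGFR-DN replicate 3 rested on 2 counts over a low Rpl39 (126 CPM, against 253 to 299 CPM in EGFR-WT libraries). The level of Rpl39l there was 0.101 CPM, close to the 0.0952 CPM of EGFR-WT replicate 1. Summed over libraries the level was 10.6 times that of EGFR-WT per total count (exact 95% interval 3.30 to 53.9, for counting error alone), from 32 and 3 counts. Rpl39l had too few counts to be tested with all 6 libraries and passed the count filter without EGFR-DN replicate 3 only through the 2 EGFR-DN libraries in which it was high, so no fold change or p from that fit is given for it. Rpl3l, which replaces Rpl3 in striated muscle, had 9, 20 and 2 counts in EGFR-DN libraries and 4, 4 and 0 counts in EGFR-WT libraries. Its share of the pair was 0.188%, 0.462% and 0.111% in EGFR-DN libraries and 0.0920%, 0.0859% and 0% in EGFR-WT libraries, also without overlap (exact p = 0.1, adjusted 0.350). With the pseudogene rows counted as Rpl3 it was 0.0103%, 0.0249% and 0.00977% in EGFR-DN libraries and 0.00503%, 0.00461% and 0% in EGFR-WT libraries. The summed level was 3.84 times that of EGFR-WT (exact 95% interval 1.73 to 9.66, for counting error alone). Rpl10l, a retrogene that serves in place of Rpl10 during male meiosis, had 0, 1 and 0 counts in EGFR-DN libraries and 1, 0 and 1 counts in EGFR-WT libraries, which allows no comparison. The level of Rpl3l itself overlapped between groups, with 0.262, 0.567 and 0.101 CPM in EGFR-DN libraries and 0.127, 0.106 and 0 CPM in EGFR-WT libraries, and its share in EGFR-DN replicate 3 rested on 2 counts over a low Rpl3. Rpl39l and Rpl3l each stayed below 1 CPM in every library, against 126 to 315 CPM for Rpl39.

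Like-named copies that RefSeq lists as pseudogenes were counted beside their parents. Rps4l held 2.64%, 2.23% and 3.98% of its pair with Rps4x in EGFR-DN libraries and 1.85%, 2.58% and 2.24% in EGFR-WT libraries, and the groups overlapped (exact p = 0.300, adjusted 0.700). The next 3 pairs were chosen after their values were seen and were not tested. Rpl6l held 48.4%, 50.7% and 35.9% of its pair with Rpl6 in EGFR-DN libraries and 46.9%, 48.7% and 49.8% in EGFR-WT libraries, so nearly equal counts went to a pseudogene and its parent in 5 of the 6 libraries. Rpl32l, listed as protein coding, held 8.70%, 8.61% and 11.1% of its pair with Rpl32 in EGFR-DN libraries and 8.31%, 8.59% and 9.06% in EGFR-WT libraries. Rps12l1 held 56.1%, 32.0% and 66.3% of its pair with Rps12 in EGFR-DN libraries and 46.8%, 45.9% and 54.8% in EGFR-WT libraries, the widest scatter of the 10 pairs in percentage points. Its level was 9.92, 2.40 and 7.94 CPM in EGFR-DN libraries and 5.50, 5.33 and 8.55 CPM in EGFR-WT libraries, and that of Rps4l was 10.6, 7.68 and 7.85 CPM in EGFR-DN libraries and 7.33, 9.29 and 8.03 CPM in EGFR-WT libraries. For both copies the groups overlapped and EGFR-DN replicate 3 was not the lowest library. Reads of near-identical copies may have been split between these symbols by the counting, and the shares are uncertain.

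**Figure D5:**
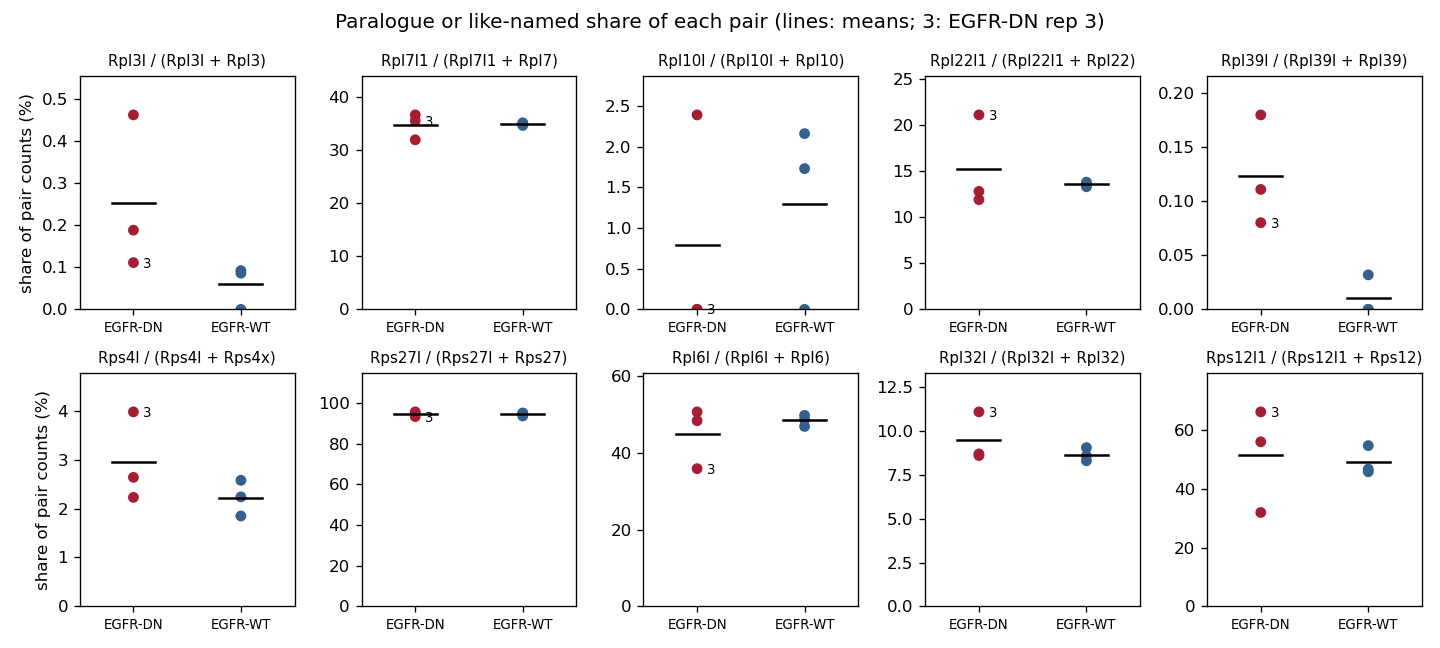
Share of a pair's counts that fell to the paralogue or like-named copy (vertical axis, percent, starting at 0), for 10 pairs. Each point is a library, with EGFR-DN left of EGFR-WT, lines are means and the 3 marks EGFR-DN replicate 3. The groups are apart for Rpl3l and Rpl39l, both at shares under 0.5% and each resting on 2 counts in EGFR-DN replicate 3. Rpl22l1 reaches 21.1% in EGFR-DN replicate 3, against 13.3% to 13.8% in EGFR-WT libraries.

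Genes that work with the family were read from lists of the same pathway. Cytosolic ribosome genes whose symbols the rule does not match (5 genes) had 0 called by edgeR in either direction (0 at an unadjusted p under 0.05), and a median log2 fold change of -0.21 with all libraries and 0.088 without EGFR-DN replicate 3. Among them Rack1, a scaffold protein on the small subunit, had 633, 567 and 366 CPM in EGFR-DN libraries and 611, 588 and 613 CPM in EGFR-WT libraries. Rpl36al, a close relative of Rpl36a, had 279, 269 and 81.5 CPM in EGFR-DN libraries and 240, 268 and 246 CPM in EGFR-WT libraries. Rack1 and Rpl36al therefore shared the low level in EGFR-DN replicate 3.

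TOP mRNAs that encode other proteins (16 genes, mostly translation factors) had 0 called in either fit and stood at a median of -0.76 (log2, relative to the EGFR-WT mean) in EGFR-DN replicate 3. Ribosome biogenesis genes (27) had 0 called and a median of -0.48 there, and mitochondrial ribosomal protein genes (78) had 0 called and a median of -0.65. The medians of these 3 lists thus lay below the EGFR-WT mean in that library, and the -1.02 of the cytosolic family was lower still. Translation control genes (15), with 0 called, had a median of 0.11 there. An unadjusted edgeR p under 0.05 was seen for 0 genes of these 4 lists with all libraries, and without EGFR-DN replicate 3 for 3 of 15 translation control and 2 of 78 mitochondrial ribosomal protein genes, where 13.6% of all genes had one. Eif4ebp2, a repressor of cap-dependent translation that mTOR inhibits, had 46.7, 44.4 and 215 CPM in EGFR-DN libraries and 36.7, 40.7 and 38.6 CPM in EGFR-WT libraries, and Polr1a, the large subunit of the polymerase that makes rRNA, had 60.6, 60.9 and 183 CPM in EGFR-DN libraries and 60.5, 57.3 and 65.2 CPM in EGFR-WT libraries. The values of EGFR-DN replicate 3 were the highest for both genes. Without that library their log2 fold changes were 0.23 (SE 0.079, edgeR adjusted p = 0.273) for Eif4ebp2 and -0.011 (SE 0.074) for Polr1a. Eif4ebp1, of the same list as Eif4ebp2, went the other way. It had 71.5, 79.5 and 60.4 CPM in EGFR-DN libraries and 83.5, 92.1 and 82.8 CPM in EGFR-WT libraries. Its log2 fold change was -0.29 (SE 0.16, edgeR adjusted p = 0.690) with all libraries.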

How the data were processed

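RNA of 6 libraries was reverse transcribed with oligo(dT) priming (SMART-Seq v4, 10 ng) and made into Nextera XT libraries, per the labels' protocols. The authors deposited estimated counts by gene symbol without scaling. DRAGEN, DESeq2 1.40.2, R 4.3.1 and mm39 are named, without their roles, in the submitters' processing notes. How reads matching several copies were treated is not given in the sources used here. As whole counts had been planned for, estimated counts were rounded before the count tests. Genes past filterByExpr (19313) were scaled with TMM and tested with edgeR 4.0.16 in R 4.3.3 (quasi-likelihood, two-sided, Benjamini-Hochberg over all genes tested, threshold 0.05), and again without EGFR-DN replicate 3. Log2 fold changes are EGFR-DN over EGFR-WT, and SE is the log2 fold change divided by the root of F. Lengths came from GENCODE and starts from RefSeq, both of GRCm38, an earlier build than that of the counts. Alternatives were DESeq2 1.42.0, limma 3.58.1 (voom, with and without quality weights), other scalings and filters, a replicate block, added pseudogene rows and each library left out. Scripts were tested on simulated data.

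The members, gene lists and pairs were chosen with earlier results of these data known. Genes named were the 7 pairs, the stalk, the 5 highest and 5 lowest per length, the 6 farthest above and 6 below the family median in each fit, the 4 anaemia members with the smallest p, members under 4 CPM, and up to 3 genes of smallest p from each other list; others are said to have been chosen after their values were seen. A few genes under this rule are not reported here. The intervals and the floor of 3 counts cover counting error only.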

Additional observations from a re-analysis of the deposited data

How the results depend on the processing

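The count of members called was 0 under every scaling, filter, test and left-out library tried, including DESeq2, voom and summed-member scaling without EGFR-DN replicate 3, which were added after seeing the data. The median log2 fold change of the expressed members was -0.25, ran from -0.46 to 0.017 when single libraries were left out, and was -0.007 with limma-voom quality weights and 0.050 with the summed members as library size, so its direction rested on EGFR-DN replicate 3. Other scalings and filters gave -0.32 to -0.24, and limma-voom -0.34. With the replicate block it was -0.33 and the fold change of Rps12l1 was -0.12. Deviations from the group means correlated at -0.0192, 0.055 and 0.064 between same-numbered libraries and at -0.0892 to 0.082 between differently numbered ones. With so few libraries per group this cannot show whether same-numbered libraries are linked, and the labels do not say.

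The summed share of members was 2.65% in EGFR-WT without the rRNA-like genes and 2.68% with the 5 genes the rule does not match. With pseudogene rows the mean share was 3.92% in EGFR-DN (SD 1.87) and 4.96% in EGFR-WT (SD 0.220). The lower EGFR-DN mean rested on EGFR-DN replicate 3, where members took 0.881% and pseudogene rows 0.937% of counts. In EGFR-DN replicates 1 and 2 members took 2.62% and 2.41% and pseudogene rows 2.71% and 2.48%. The Rpl7l1 share of its pair differed by 0.296 percentage points once pseudogene rows were added, against -0.243. Signs turned for Rps4l (-0.020) and Rps12l1 (-0.066) with library size alone, and for Rps12l1 (-0.16) with limma-voom. With quality weights they turned for Rpl3 (0.038), Rpl39 (0.081), Rplp0 (0.037), Rplp2 (0.016), Rpl10a (-0.13), Rps12l1 (-0.44), Rpl41 (0.070), Rps28 (0.094), Rps13 (0.064), Rps27a (0.091) and Rpl18 (0.079). With the summed members as library size, values were 0.28 for Rpl3, 0.079 for Rpl7, 0.061 for Rpl39, 0.063 for Rps4x, 0.080 for Rps27, 0.071 for Rpl7l1, 0.064 for Rps27l, 0.17 for Rplp0, 0.051 for Rplp2, 0.25 for Rpl41, 0.052 for Rps28, 0.18 for Rps27a, 0.21 for Rpl12, 0.20 for Rpl15 and 0.035 for Rpl26.

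With single libraries left out, log2 fold changes ran from -0.086 to 0.18 for Rps4l, -0.33 to 0.46 for Rps12l1, -0.25 to 0.041 for Rpl3, -0.68 to 0.023 for Rpl22, -0.45 to 0.10 for Rpl39, -0.41 to 0.010 for Rps27l, -0.33 to 0.064 for Rplp0, -0.47 to 0.029 for Rplp2, -0.14 to 0.43 for Rpl10a, -0.25 to 0.094 for Rpl41, -0.44 to 0.12 for Rps28, -0.58 to 0.12 for Rps13, -0.34 to 0.12 for Rps27a and -0.51 to 0.11 for Rpl18. Pair shares, in percentage points, ran from -1.21 to 1.14 for Rpl7l1, -1.23 to 3.38 for Rpl22l1 and -0.463 to 0.718 for Rps27l. The cause of these changes was not tested. Depth limits Rpl10l, Rpl3l, Rpl39l and Rpl28, which had at most 22 counts in a library.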
